A study of Rattus norvegicus with 23 samples.

Results

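Kidney gene expression was compared between SBH/y and SBN/y rats that had lived for 3 months with a single kidney. The comparison took in 12 of the 23 arrays of the series, 6 from each strain. It was made across all 31042 probe sets that are not array controls, and every difference below is SBH/y minus SBN/y. SBN/y and SBH/y are known as the lines of the Sabra rat that resist and develop salt-dependent hypertension, and proteinuria stands in the title of the series. All rats were male, were operated on after weaning, ate standard chow and were killed under ether at 4 months of age. The 1-kidney groups had lost the right kidney. The other 11 arrays came from sham-operated rats that kept 2 kidneys (5 SBN/y and 6 SBH/y), and served to ask whether the strain difference was of another size with 1 kidney. Each strain is 1 genetic background, so the comparison holds every genetic difference between the lines at once, and the labels name no salt load, blood pressure or protein excretion for any rat.

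A kidney left alone after uninephrectomy is known to enlarge and to filter more per nephron. Proximal tubule cells reclaim filtered protein, salt and solutes at high energy cost, and injured tubule cells are known to switch on proteins such as kidney injury molecule 1 and osteopontin. Sustained injury is known to draw macrophages, to raise antigen presentation and to fill the space between tubules with collagen. The gene lists used below follow these roles.

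The arrays measured extracts of whole kidney, so fewer cells of a type and less RNA per cell cannot be told apart. The values are probe set summaries on a log2 scale and serve to compare the same gene between arrays, not 1 gene with another. Array medians ran from 4.64 to 4.68 over the 12 arrays. In a principal component analysis of these 12, the strains lay apart on the first component (43.3% of the variance), with SBN/y at -21.64 to -18.64 and SBH/y at 13.96 to 25.90. The second held 14.2%, and its ends were SBH/y replicate 2 (27.68) and SBH/y replicate 5 (-23.62), which stood apart from the other 10. RNA quality was read from the GAPDH control probe sets, as the 3′ signal less the 5′ signal. This was 0.45 ± 0.04 (SD, n = 6) in SBN/y and 0.53 ± 0.11 (SD, n = 6) in SBH/y. The highest value, 0.72, was that of SBH/y replicate 2, which lay at 1 end of the second component. The part of this measure in the results was not tested beyond a fit that held it constant. Markers of the nephron marked these samples as kidney in both groups: megalin (Lrp2) lay at 11.30 to 11.50, the phosphate transporter Slc34a1 at 12.09 to 12.31 and uromodulin (Umod) at 12.32 to 12.52 over the 12 arrays.

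With 1 kidney, 4342 probe sets differed between the strains at an adjusted p below 0.05 (14.0% of those tested), 2345 higher (7.55%) and 1997 lower (6.43%) in SBH/y. The median size of these differences was 0.34 log2, and a 2-fold difference or more was reached by 132 that were higher and 122 that were lower. At 2267 of the 4342 (52.2%) the arrays of the strains did not overlap, against 7.62% of all probe sets tested and 9.81% of all genes. Counted as genes, each by its brightest probe set, 2516 of 14217 differed (17.7%), 1453 higher (10.2%) and 1063 lower (7.48%). These gene shares are the background for the lists below, and the median difference over all genes was 0.01. The lists were chosen with earlier results of these data known, so their counts are descriptions and not tests. The labels name no separate animals beyond the sample names, so the p-values speak only for the spread of these samples, which may be technical. Sequence differences between the strains under the probes and differences in expression cannot be told apart on such an array.

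**Figure D1:**
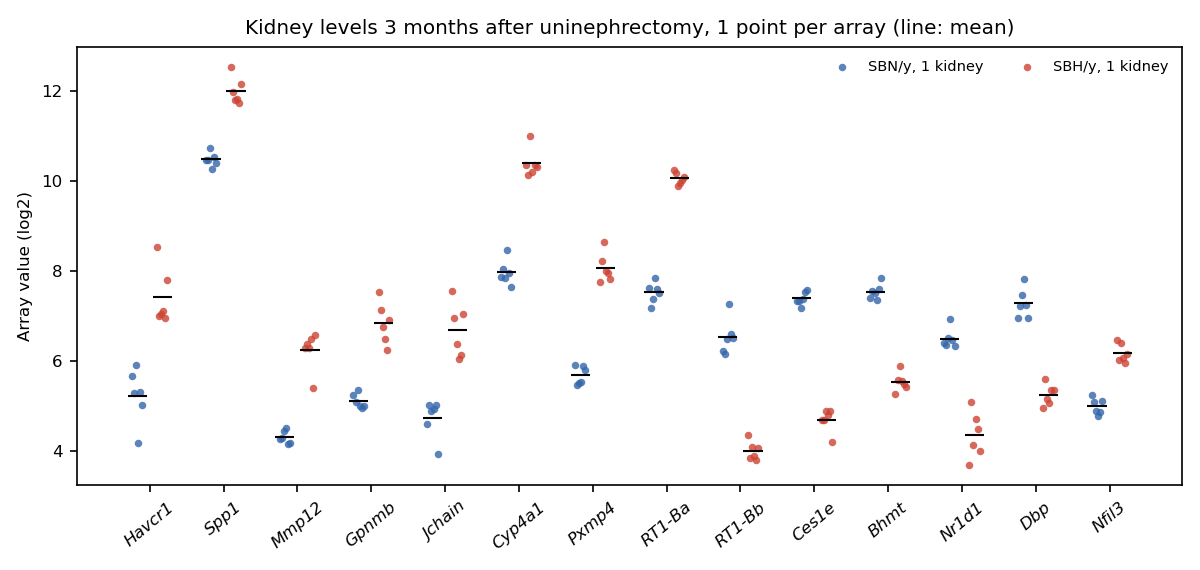
Array value (log2) of 14 genes in the 6 SBN/y (blue) and 6 SBH/y (red) samples with 1 kidney, 1 point per array, with the mean as a line. No pair of groups overlaps; Havcr1 runs from 4.19 to 5.92 in SBN/y against 6.96 to 8.53 in SBH/y.

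Tubule injury genes were higher in SBH/y. Havcr1, which encodes kidney injury molecule 1, lay at 4.19, 5.29 and 5.92 (lowest, median and highest of 6 arrays) in SBN/y and at 6.96, 7.09 and 8.53 in SBH/y. Every SBH/y array was above every SBN/y array, with SDs of 0.60 in SBN/y and 0.63 in SBH/y. The difference was 2.18 ± 0.24 log2 (standard error of the fit, as in all log2 differences below; adjusted p = 7.86e-08), a 4.55-fold higher level. Spp1, which encodes osteopontin, lay at 10.28, 10.47 and 10.75 in SBN/y and at 11.74, 11.90 and 12.54 in SBH/y. Here too the groups were apart, at a high signal in both. The Spp1 difference was 1.52 ± 0.10 (adjusted p = 3.82e-12), a 2.87-fold higher level.

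Of 21 measured genes on the tubular injury list, 13 were higher and 2 lower, with a median difference of 0.24. Timp1, an inhibitor of matrix proteases, differed by 1.19 ± 0.10 (adjusted p = 1.22e-09), and its SBH/y arrays (6.61 to 7.53) lay above the SBN/y arrays (5.47 to 5.98). Cd44, the receptor of hyaluronan and osteopontin, differed by 1.08 ± 0.11 (adjusted p = 1.92e-08). Its second probe set gave 1.41. Tnfrsf12a, the receptor of the cytokine TWEAK, was higher by 1.08 ± 0.12 and the intermediate filament Vim by 0.78 ± 0.08, again with no overlap. The list's lower members differed in size. The epithelial keratin Krt19 was at 7.27, 7.53 and 7.71 in SBN/y and at 5.32, 5.46 and 5.63 in SBH/y, which parts all arrays of the strains. Its difference of -2.04 ± 0.11 (adjusted p = 3.95e-14) was the opposite of that of the list, and it was as low in SBH/y with 2 kidneys (5.25). The other was Egf, a growth factor made by the distal nephron, at -0.22 ± 0.06 (adjusted p = 0.00879). Lcn2, which encodes the injury marker NGAL, differed by 0.11 ± 0.07 and did not pass the test (adjusted p = 0.402). Egf and Lcn2 were picked after their values were seen.

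**Figure D2:**
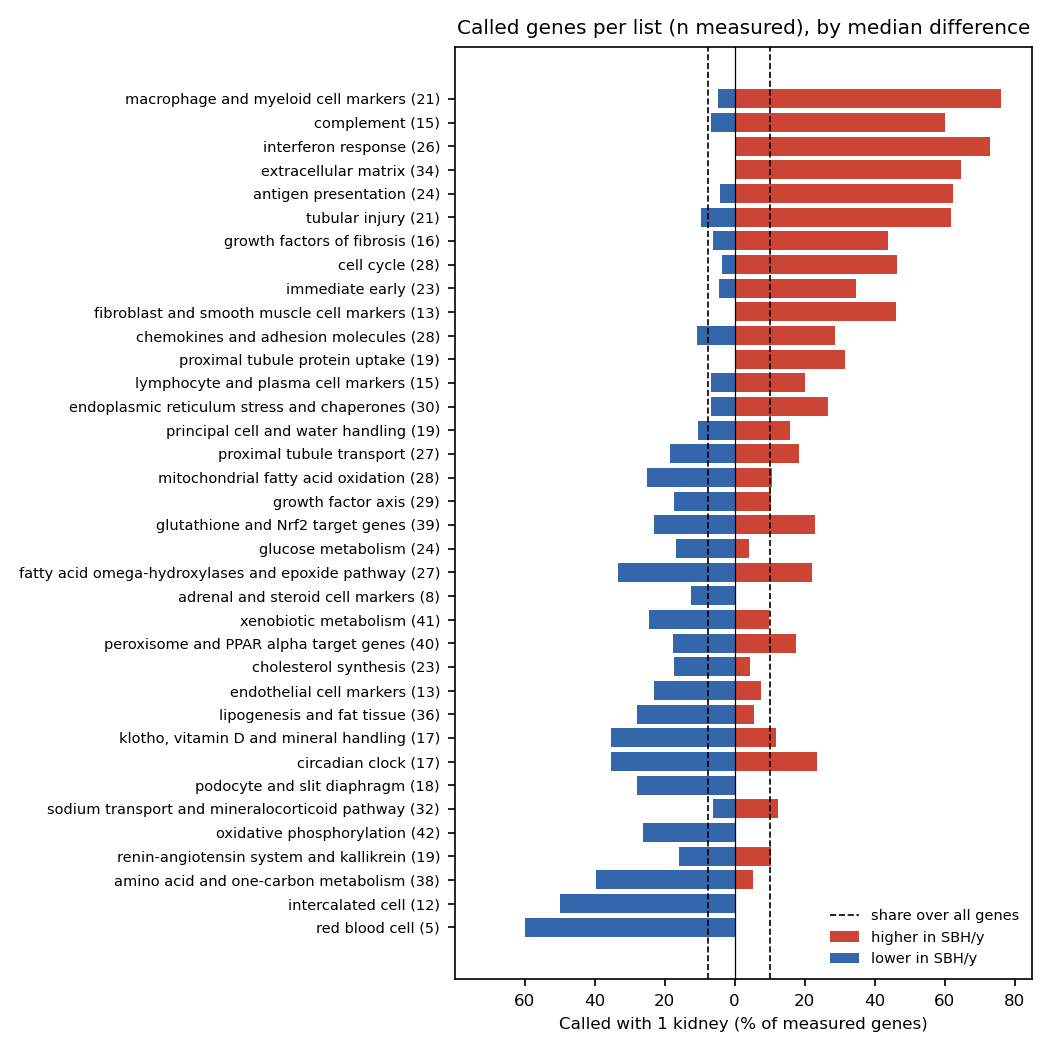
Share of the measured genes of each list (number in parentheses) that were higher (red, to the right) or lower (blue, to the left) in SBH/y with 1 kidney, ordered by the list's median difference, with dashed lines at the shares over all genes (10.2% and 7.48%). Myeloid markers have the longest red bar, with 16 of 21 genes higher.

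Matrix genes rose on the same side. The extracellular matrix list had 22 of 34 measured genes higher and 0 lower, with a median of 0.37. Its level, the mean over its genes, ran from 6.31 to 6.48 in SBN/y against 6.65 to 6.99 in SBH/y, without overlap. Mmp12, a macrophage protease that cuts elastin, lay at 4.16, 4.28 and 4.52 in SBN/y and at 5.39, 6.34 and 6.58 in SBH/y. The lowest SBH/y array was replicate 5, and it was still above all of SBN/y. The difference of 1.93 ± 0.13 (adjusted p = 1.4e-11) was the largest of the list. Chains of collagen VI and IV followed, with Col6a1 at 0.87 ± 0.08 (adjusted p = 9.69e-09), Col4a1 at 0.69 ± 0.07 (2.29e-08) and Col6a3 at 0.62 ± 0.06 (2.04e-08). All 3 had SBH/y arrays above every SBN/y array. The basement membrane chain Col4a1 was seen by a second probe set too, at 0.73, while the second set of Col6a3, which is dim, gave 0.24 and did not pass (adjusted p = 0.105).

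Among growth factors of fibrosis, 7 of 16 were higher and 1 lower. Ccn2, the connective tissue growth factor, ran from 8.11 to 8.60 in SBN/y against 8.98 to 9.47 in SBH/y, a difference of 0.84 ± 0.10 (adjusted p = 4.83e-07). Ccn1, of the same family, differed by 1.02 ± 0.13 (1.49e-06) and Tgfbi, a matrix protein induced by TGF beta, by 0.42 ± 0.07 (3.27e-05). The exception was Bmp4, a bone morphogenetic protein, at -0.42 ± 0.06 (3.5e-06). Of 13 markers of fibroblasts and smooth muscle cells, 6 were higher and 0 lower. Besides Vim these included the muscle genes Tagln (0.70 ± 0.12), Des (0.39 ± 0.07) and Acta2 (0.32 ± 0.07). Acta2, the actin of myofibroblasts, ran only from 5.74 to 5.97 in SBN/y against 6.07 to 6.29 in SBH/y, a small gap with no overlap. The list's level ran from 6.17 to 6.25 in SBN/y against 6.27 to 6.52 in SBH/y, and 7 of the 13 genes did not pass the test.

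Macrophage and myeloid cell markers had the largest median of the 36 lists, 0.58, with 16 of 21 higher and 1 lower. The list's level ran from 5.97 to 6.33 in SBN/y against 6.45 to 6.88 in SBH/y. The highest SBN/y value belonged to replicate 4. Lyz2, the lysozyme of macrophages and neutrophils, lay at 10.42, 10.51 and 11.02 in SBN/y and at 11.46, 11.60 and 11.78 in SBH/y (difference 1.02 ± 0.08, adjusted p = 2.07e-10). Gpnmb, a glycoprotein of lipid-laden macrophages, lay at 4.97, 5.04 and 5.35 in SBN/y and at 6.26, 6.84 and 7.55 in SBH/y (1.74 ± 0.14, 2.8e-10). Neither gene had an array of one strain within the range of the other. Cd68, a lysosomal membrane protein of macrophages, differed by 0.83 ± 0.09 (4.99e-08). Outside the list, the chemokine Ccl6 differed by 1.78 ± 0.12 (7.67e-12), with SBN/y at 5.45 to 6.61 and SBH/y at 7.55 to 7.87. Fcgr2b, an inhibitory Fc receptor, and Olr1, the receptor of oxidised LDL and no member of the list, were called higher too, but their SBN/y means (3.04 and 2.63) lay under 3.13, the highest value of Xist, which male cells do not use, so their fold was not measured. Of the single SBN/y arrays, replicate 4 was above that value for Fcgr2b (3.36) and none was for Olr1. Mrc1, the mannose receptor of resident macrophages, was the member that was lower, at -0.43 ± 0.13 (adjusted p = 0.0286). Cd163, Adgre1 and Itgam, other macrophage genes, did not pass the test (-0.09, 0.19 and -0.04). Mrc1 and these 3 were picked after their values were seen.

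Of lymphocyte and plasma cell markers 3 of 15 were higher and 1 lower. Jchain, the joining chain of secreted IgA and IgM made by plasma cells, lay at 3.94, 4.92 and 5.03 in SBN/y and at 6.05, 6.67 and 7.56 in SBH/y. All SBH/y arrays stood above all SBN/y arrays. The difference was 1.95 ± 0.20 (adjusted p = 2.82e-08) and 0.69 by the second probe set (5.04e-06). Ighl2, named as an immunoglobulin gene and no member of the list, rose by 1.49 ± 0.16 (6.34e-08). Of the list, Cd4 (0.36 ± 0.10) and the T cell gene Cd3g (0.31 ± 0.08) rose by less. Another T cell gene, Cd3e, at 0.17 ± 0.08, did not pass the test (adjusted p = 0.211). The chemokine of T cells Ccl5 was lower by a small amount (-0.25 ± 0.07, adjusted p = 0.023), a call lost in 5 of the fits that leave out an array.

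Antigen presentation genes were called in 15 of 24 cases as higher and in 1 as lower, with a median of 0.33. The class II chain genes of the rat major histocompatibility complex had the widest gaps. RT1-Ba, the alpha chain of the RT1-B molecule, lay at 7.18, 7.56 and 7.84 in SBN/y and at 9.90, 10.06 and 10.24 in SBH/y. RT1-Bb, its beta chain partner, went the other way, at 6.17, 6.50 and 7.28 in SBN/y and at 3.81, 3.98 and 4.36 in SBH/y. The 2 chains of 1 molecule thus differed by 2.54 ± 0.09 (adjusted p = 6.27e-18) and -2.53 ± 0.14 (1.34e-13). Other probe sets did not repeat this. The second of RT1-Ba gave -0.73 (1.27e-05), and 2 more -0.15 and -0.13 without passing, and the second of RT1-Bb, which is dim, -0.07. RT1-Ba therefore has no settled direction here, and for RT1-Bb no second clear signal was at hand. RT1-Db1 and RT1-Da, the chains of the other class II molecule, were higher by 1.46 ± 0.09 and 1.01 ± 0.09, and the invariant chain Cd74, picked after its value was seen, by 0.67 ± 0.08.

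These genes lie side by side. In the RefSeq order of the GRCr8 assembly, the longest run of neighbouring measured genes that all differed held 8 genes on chromosome 20: RT1-Da, RT1-Db1, RT1-Ba, RT1-Bb, Tap2, Psmb8, Tap1 and Psmb9. The last 4 encode the peptide transporter of class I loading and subunits of the immunoproteasome. By their brightest probe sets all but RT1-Bb were higher in SBH/y, RT1-Ba with the conflict just given. Psmb9 differed by 0.67 ± 0.10, Tap1 by 0.46 ± 0.09, Psmb8 by 0.44 ± 0.08 and Tap2 by 0.24 ± 0.08, and the call of Tap2 (adjusted p = 0.0348) was lost in 7 of the fits without 1 array. With 2 kidneys 6 of the 8 were called as well.

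**Figure D3:**
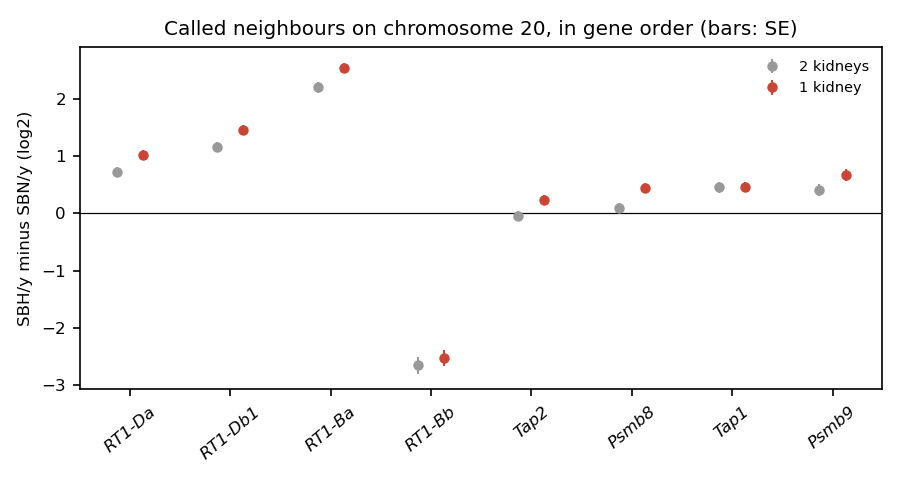
Strain difference (log2, SBH/y minus SBN/y, with its standard error) of the 8 neighbouring genes on chromosome 20, in gene order, with 2 kidneys (grey) and 1 kidney (red). The first 4 genes differ in the same direction with either number of kidneys, and RT1-Bb lies lowest, at -2.53 with 1 kidney.

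Interferon response genes were higher at 19 of 26 and lower at 0, with a median of 0.39. Ifi27 lay at 8.37, 8.60 and 8.87 in SBN/y and at 10.12, 10.15 and 10.36 in SBH/y. Its arrays were tightly grouped in SBH/y, and the difference was 1.60 ± 0.07 (adjusted p = 9.7e-16). Isg15, a ubiquitin-like protein induced by interferon, differed by 0.77 ± 0.09 (6.2e-07) without overlap, and Ifi44 by 0.57 ± 0.10 with overlap. Of the complement genes 9 of 15 were higher and 1 lower. The inhibitor of C3b, Cfi, differed by 1.13 ± 0.13 (1.17e-07), the receptor C5ar1 by 0.73 ± 0.08 (8.08e-08) and the C1q chain C1qc by 0.72 ± 0.09 (1.34e-06). C1qc and its partners are made by macrophages and stand on the myeloid list too. Chemokines and adhesion molecules were mixed, with 8 of 28 higher and 3 lower. Cxcl16, a scavenger receptor and chemokine, was higher by 0.41 ± 0.05, the membrane chemokine Cx3cl1 by 0.44 ± 0.06 and interleukin 1 beta (Il1b) by 0.52 ± 0.08. Cxcl14, at -0.92 ± 0.10 (4.78e-08), was lower by its bright probe set only, since its dim second set gave -0.04.

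Early response and cell division genes were also more often higher than lower. The immediate early list had 8 of 23 higher and 1 lower. Myc, a driver of growth, lay at 5.05, 5.19 and 5.42 in SBN/y and at 6.12, 6.41 and 6.90 in SBH/y, a difference of 1.25 ± 0.11 (adjusted p = 1.09e-09). Klf6 followed with 0.86 ± 0.10 (1.19e-07) and 2 more probe sets at 0.90 and 0.95, and the stress factor Atf3 with 0.84 ± 0.10 (4.38e-07). Atf3 was dim in SBN/y, at 3.02 to 3.36, around the highest Xist value of 3.13, so the size of its difference is uncertain. Of 28 cell cycle genes 13 were higher and 1 lower. The proliferation marker Mki67 had a low signal, from 3.24 to 3.51 in SBN/y against 3.54 to 4.09 in SBH/y, and differed by 0.46 ± 0.09 (0.00028). Cdk1, which starts mitosis, differed by 0.50 ± 0.12 and its cyclin partner Ccnb2 by 0.40 ± 0.10, both with overlap between the strains. With the GAPDH measure held constant, 7 cell cycle genes were called higher rather than 13. Among chaperones and genes of endoplasmic reticulum stress, 8 of 30 were higher and 2 lower, among them Sdf2l1, Asns (0.71 ± 0.09) and Atf3, which stands on both lists. Sdf2l1, a cofactor of the chaperone BiP, lay at 4.40, 4.63 and 5.04 in SBN/y and at 6.87, 7.15 and 7.42 in SBH/y, a 5.50-fold difference. BiP itself (Hspa5), picked after its value was seen, differed by -0.03 and did not pass.

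Clock genes differed in both directions. The circadian clock is known as a loop in which BMAL1 with CLOCK or NPAS2 drives genes through E-boxes, the PER and CRY proteins block that pair, and REV-ERB alpha and beta (Nr1d1, Nr1d2) repress Bmal1 through ROR elements. DBP, TEF and HLF activate and NFIL3 represses through D-boxes. Because these genes swing over the day, an hour of death that differed between groups would move them, and the labels give no hour. The 250 bases before the start of 15 of the 17 measured clock genes were searched on both strands. The letters sought were CACGTG (E-box), AGGTCA (core of the ROR element) and TTATGNAA (D-box). Those 6 or 8 letters occur in 5.79%, 13.7% and 3.21% of 27457 rat promoters of the same length. The following 4 windows, from RefSeq promoters of GRCr8, are shown because their genes differed between the strains and their windows hold a match, which is in capitals.
Bmal1: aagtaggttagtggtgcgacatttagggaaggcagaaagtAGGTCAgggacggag
Nr1d2: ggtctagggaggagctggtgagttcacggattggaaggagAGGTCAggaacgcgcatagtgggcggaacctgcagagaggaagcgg
Tef: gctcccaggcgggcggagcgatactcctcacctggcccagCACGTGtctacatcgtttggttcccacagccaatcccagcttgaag
Bhlhe41: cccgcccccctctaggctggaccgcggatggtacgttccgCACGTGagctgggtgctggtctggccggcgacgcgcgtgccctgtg
They lie at chr1:176766273-176766327 (plus strand), chr15:9954807-9954892 (plus), chr7:115206589-115206674 (plus) and chr4:180569358-180569443 (minus). A match of letters is a description and not a shown binding site. The windows of Nr1d1, Dbp, Nfil3 and Per3 held none of the 3 motifs, which says only that these letters are not in these windows.

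Of the 17 clock genes 4 were higher in SBH/y and 6 lower. Nr1d1 lay at 6.34, 6.44 and 6.94 in SBN/y and at 3.69, 4.32 and 5.09 in SBH/y, a 4.44-fold lower level. Its relative Nr1d2, with the ROR letters in its window above, lay at 8.09, 8.39 and 8.60 in SBN/y and at 6.80, 7.01 and 7.54 in SBH/y. Dbp lay at 6.96, 7.24 and 7.83 in SBN/y and at 4.97, 5.27 and 5.59 in SBH/y. These 3 genes were lower on every SBH/y array than on any SBN/y array. Their differences were -2.15 ± 0.17 for Nr1d1 (adjusted p = 1.64e-10), -1.26 ± 0.12 for Nr1d2 (1.09e-08) and -2.03 ± 0.13 for Dbp (5.06e-12), and 2 further probe sets of Nr1d2 gave -1.23 and -1.09. On the other side, the repressor Nfil3 lay at 4.78, 4.99 and 5.25 in SBN/y and at 5.97, 6.12 and 6.48 in SBH/y (1.18 ± 0.10, 2.1e-09). The remaining called members were picked after their values were seen. Cry1 (1.47 ± 0.15), Bmal1 (0.82 ± 0.13, with the ROR letters shown) and Npas2 (0.55 ± 0.13) were higher. Per3 (-1.08 ± 0.14) was lower, and so were both genes with an E-box shown, Bhlhe41 (-1.08 ± 0.14) and Tef (-0.55 ± 0.08). Bhlhe40, with an E-box in its window as well, and Per2, the 1 gene with a D-box, did not pass the test, and the window of Npas2 held no match. Clock, Per1, Per2, Cry2, Rora, Hlf and Bhlhe40 did not pass the test, with differences between -0.10 and 0.08. No count of clock genes moved in any fit that left out an array of these groups, and 9 of the 10 called did not overlap (all but Npas2).

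**Figure D4:**
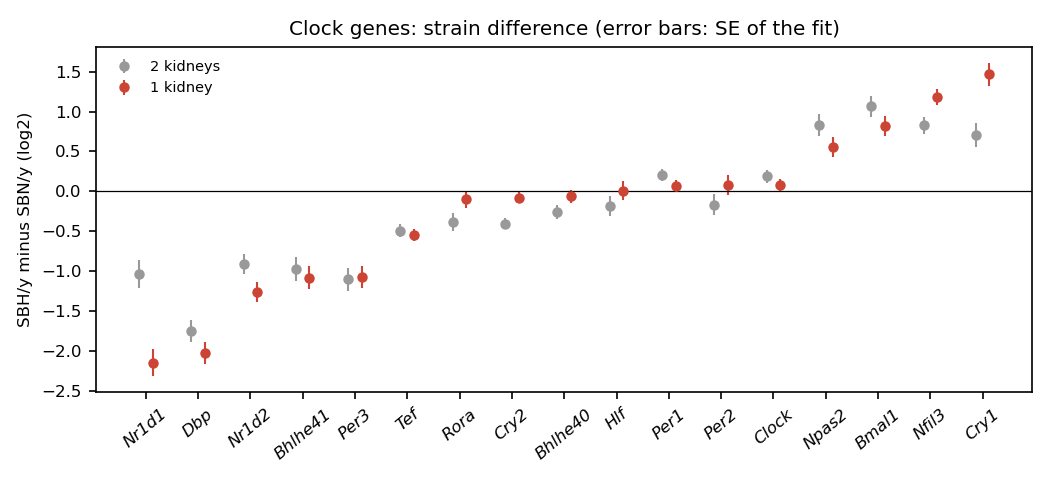
Strain difference (log2, SBH/y minus SBN/y, with its standard error) of the 17 measured clock genes with 2 kidneys (grey) and 1 kidney (red), ordered by the difference with 1 kidney. Nr1d1 and Dbp lie lowest and Cry1 highest, and Nr1d1 is at -2.15 with 1 kidney against -1.03 with 2.

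Genes of fatty acid handling were called in both directions. The medians of the omega-hydroxylase and epoxide, peroxisome and mitochondrial oxidation lists lay near 0, at -0.0276, -0.0467 and -0.00525. Cyp4a1, a cytochrome P450 that adds a hydroxyl group to the end of fatty acids, lay at 7.64, 7.91 and 8.47 in SBN/y and at 10.14, 10.34 and 10.99 in SBH/y. Cyp4a8, of the same family, lay at 10.79, 10.92 and 10.98 in SBN/y and at 11.72, 11.77 and 12.00 in SBH/y. Cyp4a3 was lower instead, at 12.09, 12.22 and 12.30 in SBN/y and at 10.59, 10.86 and 11.38 in SBH/y. At all 3 genes the strains were clear of each other. The differences were 2.43 ± 0.12 for Cyp4a1 (adjusted p = 7.38e-15), 0.90 ± 0.05 for Cyp4a8 (4.44e-13; 1.78 by a second probe set) and -1.30 ± 0.08 for Cyp4a3 (1.77e-12). They are neighbours on chromosome 5 in a run of 5 called genes with Cyp4b1 and Efcab14. Members of this family are related in sequence, and the part of cross-hybridisation between them in these values was not tested. Ephx2, which breaks down fatty acid epoxides, was lower (-0.73 ± 0.06, 2.1e-09), and Cyp2c11, an epoxide-forming P450 of male rats, differed by -0.96 ± 0.16 (4.77e-05). The list of this pathway had 6 of 27 genes higher (3 with only these groups fitted) and 9 lower. The counts of 6 and 9 lie above the shares over all genes (10.2% and 7.48%).

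Peroxisome genes and PPAR alpha target genes split evenly, 7 of 40 higher and 7 lower. Pxmp4, a peroxisomal membrane protein, lay at 5.48, 5.67 and 5.92 in SBN/y and at 7.76, 7.98 and 8.65 in SBH/y, a difference of 2.39 ± 0.11 (adjusted p = 3.07e-15), with 1.64 by its second probe set. The thioesterases Acot3 (0.91 ± 0.13) and Acot4 (0.82 ± 0.10) were higher, and Hao1, a peroxisomal oxidase of glycolate, lower (-1.07 ± 0.15). Without SBH/y replicate 1 the count of lower members was 4 rather than 7. Mpv17l, which encodes a mitochondrial and peroxisomal membrane protein, lay at 9.60, 9.74 and 10.15 in SBN/y and at 6.75, 7.12 and 7.64 in SBH/y. That made it one of the widest gaps of all, -2.66 ± 0.12 (3.01e-15), and the second probe set gave -2.0. In mitochondrial fatty acid oxidation 3 of 28 were higher and 7 lower, among them the acyl-CoA synthetase Acsm3 (-0.65 ± 0.07) and the trifunctional protein subunit Hadhb (-0.29 ± 0.05).

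Respiratory chain genes were lower by small amounts, 11 of 42 with 0 higher and a median of -0.11. Of complex II, Sdhb (-0.21 ± 0.04, adjusted p = 0.00103), Sdha (-0.25 ± 0.06) and Sdhd (-0.20 ± 0.05) were lower with no overlap between the strains. Sdhb ran from 10.95 to 11.02 in SBN/y against 10.70 to 10.89 in SBH/y. This count moved with the fit. It was 6 without SBH/y replicate 1 and 6 with only these 2 groups fitted, 7 with the GAPDH measure held constant, 17 after repeated quantile normalization and 21 with a trended and robust variance.

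Of 36 genes of lipogenesis and fat tissue 10 were lower and 2 higher. Scd, the desaturase that makes monounsaturated fatty acids, ran from 4.95 to 7.22 in SBN/y against 3.62 to 5.43 in SBH/y. The ranges overlapped, and the difference was -1.99 ± 0.38 (adjusted p = 0.000375). Thrsp, a regulator of lipogenesis, overlapped too, at -1.63 ± 0.31 (0.000344), with -1.60 and -1.04 by further probe sets. The fat cell genes Ucp1, Adipoq and Plin1 were at -1.29 ± 0.35 (called), -0.18 and -0.17 (neither passed), and Ucp1, the uncoupler of brown fat, ran from 4.51 to 6.82 in SBN/y against 4.06 to 4.75 in SBH/y. The part of attached fat in these values was not tested. Against the list, Lpl, the lipase that takes up fat from lipoproteins, lay at 7.96, 8.05 and 8.39 in SBN/y and at 9.25, 9.57 and 9.70 in SBH/y, a difference of 1.43 ± 0.08 (9.13e-14). Of cholesterol genes 4 of 23 were lower (7 with the GAPDH measure held constant) and 1 higher. Apoe, the apolipoprotein of remnant uptake, differed by -1.19 ± 0.08 (1.52e-11) by its bright probe set and by 0.03 by a set near background, Apoc2 by -1.74 ± 0.09 (3.93e-14), and the cholesterol exporter Abca1 by 0.97 ± 0.11 (1.93e-07) with 3 further probe sets at 0.92, 0.71 and 0.87.

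Amino acid and one-carbon metabolism was lower, at 15 of 38 genes against 2 higher, with a median of -0.135. Bhmt, which remethylates homocysteine with betaine, lay at 7.35, 7.54 and 7.84 in SBN/y and at 5.28, 5.53 and 5.89 in SBH/y. No SBH/y array came within a log2 unit of the SBN/y arrays, and the difference was -2.01 ± 0.08 (adjusted p = 6.02e-16). Cdo1, the first enzyme of cysteine breakdown, differed by -0.70 ± 0.07 (9.69e-09) and the folate enzyme Mthfd1 by -0.48 ± 0.05 (1.45e-08). Gadl1, an amino acid decarboxylase, was higher by 1.24 ± 0.11 (2.44e-09). In a run of 6 called neighbours on chromosome 2, Bhmt stood beside Bhmt2, a related methyltransferase, and Dmgdh, which oxidises dimethylglycine, both picked after their values were seen and lower by -0.36 ± 0.05 and -0.43 ± 0.08. Ftcd, an enzyme of histidine and folate breakdown in a run on chromosome 20, differed by -1.06 ± 0.08 (1.27e-10). In glucose metabolism 4 of 24 genes were lower, among them the pyruvate kinase Pklr (-0.94 ± 0.11, 6.24e-07), and 1 higher, the glucose carrier Slc2a2 (0.36 ± 0.08).

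Detoxifying enzymes changed gene by gene. On the xenobiotic list 10 of 41 were lower and 4 higher. Ces1e, a carboxylesterase, had the largest fall of all named genes, from 7.18, 7.36 and 7.59 in SBN/y to 4.20, 4.75 and 4.90 in SBH/y. It differed by -2.70 ± 0.11 (adjusted p = 2.79e-16), a 6.50-fold lower level, while its relative Ces1d was higher by 0.95 ± 0.11 (1.54e-07). Glutathione and Nrf2 target genes had 9 of 39 higher and 9 lower, and 5 higher and 8 lower with the GAPDH measure held constant or without SBH/y replicates 2 and 5. Of the reductases that turn biliverdin into bilirubin, Blvra was higher by 1.19 ± 0.09 (3.63e-11) and Blvrb lower, at -0.82 ± 0.06 (3.4e-11). The theta class transferases Gstt2 (-0.99 ± 0.07, but -0.22 by a second probe set), Gstt3 (-0.78 ± 0.06) and Gstt1 (-0.21 ± 0.06) were lower together. They stand in the second run of 7 on chromosome 20, with Mmp11, Smarcb1, Mif and Ddt. In that run Mif, a cytokine, and Ddt, its homologue, were lower by -0.35 ± 0.06 and -0.63 ± 0.06, and Mmp11 (0.29 ± 0.08) and Smarcb1 (0.17 ± 0.05) were higher.

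Most transporters of the nephron did not pass the test. Of 27 proximal tubule transporters 5 were higher and 5 lower, both above the shares over all genes (10.2% and 7.48%). The organic anion carrier Slco1a1 lay at 9.59, 10.02 and 10.13 in SBN/y and at 8.98, 9.06 and 9.32 in SBH/y (-0.86 ± 0.09, adjusted p = 1.94e-08). The urate carrier Slc22a12 (-0.78 ± 0.11) and the related Slc22a13 (-0.78 ± 0.14) were lower, and the lactate carrier Slc16a1 higher (1.09 ± 0.16; -0.02 by a dim second set). For protein uptake 6 of 19 were higher (10 with a trended and robust variance) and 0 lower, led by cystatin C (Cst3, 0.40 ± 0.06, 8.58e-06) and the lysosomal proteases Ctsd (0.43 ± 0.07) and Ctsk (0.39 ± 0.07). The uptake receptor megalin itself, Lrp2, differed by -0.08 ± 0.05 (adjusted p = 0.281).

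In sodium transport and the mineralocorticoid pathway 4 of 32 were higher and 2 lower (4 without SBH/y replicate 3 and 5 after repeated quantile normalization). The counts of 4 and 2 lie near the shares over all genes (10.2% and 7.48%), and the list's median was -0.07. The differences below are therefore those of single genes. Sgk1, a kinase induced by aldosterone that raises sodium uptake, lay at 8.84, 9.07 and 9.14 in SBN/y and at 9.90, 9.99 and 10.13 in SBH/y. The strains were well apart, by 0.95 ± 0.07 (adjusted p = 4.72e-11). Tsc22d3, another steroid-induced regulator, differed by 0.79 ± 0.09 (3.52e-07) and Fxyd4, a subunit of the sodium pump in the collecting duct, by 0.70 ± 0.10 (9.25e-06). The kinase Stk39, which acts on the sodium chloride cotransporters, was lower (-0.36 ± 0.06). Its second probe set gave -0.12 and did not pass (adjusted p = 0.45). The cotransporters Slc12a1 (-0.10 ± 0.07) and Slc12a3 (0.03 ± 0.09) did not pass the test. In the renin-angiotensin list 3 of 19 were lower and 2 higher. Kallikrein (Klk1), a protease of the distal nephron, was at 9.73, 10.05 and 10.37 in SBN/y and at 9.28, 9.52 and 9.73 in SBH/y (-0.52 ± 0.09, 7.92e-05), and the angiotensin receptor Agtr1b differed by -0.52 ± 0.11 (0.00157) with overlap.

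The collecting duct lists moved in different ways. Of 12 intercalated cell genes, which secrete acid or base, 6 were lower and 0 higher, with a median of -0.16. The list's level lay between 6.99 and 7.12 in SBN/y and between 6.78 and 6.94 in SBH/y. The anion exchangers Slc4a1 (-0.35 ± 0.06, adjusted p = 0.00021; -0.33 by a second probe set) and Slc26a4 (-0.30 ± 0.07) and the proton pump subunits Atp6v1c2 (-0.38 ± 0.07) and Atp6v1g3 (-0.25 ± 0.06) led it. Slc4a1 is also a red cell gene, and the red cell genes Hbb (-0.51 ± 0.13) and Alas2 (-0.80 ± 0.14) were lower in the same arrays. Of 5 red cell markers, Slc4a1 among them, 3 were lower and 0 higher, and their level ran from 6.38 to 6.62 in SBN/y against 5.91 to 6.25 in SBH/y. Their part in the Slc4a1 value was not tested. Of principal cell and water handling genes 3 of 19 were higher and 2 lower. Aqp11, a water channel inside proximal tubule cells, lay at 7.60, 7.68 and 7.84 in SBN/y and at 5.94, 6.01 and 6.50 in SBH/y (-1.60 ± 0.08, 6.29e-15). The vasopressin-regulated channel Aqp2 was higher (0.61 ± 0.11) and Aqp3 lower (-0.44 ± 0.11), both with overlap.

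Mineral handling genes were lower at 6 of 17 and higher at 2. Casr, the calcium-sensing receptor of the thick ascending limb, lay at 7.73, 7.87 and 7.91 in SBN/y and at 6.58, 6.72 and 7.15 in SBH/y (-1.08 ± 0.07, adjusted p = 1.54e-11). The claudins of that segment, which pass magnesium and calcium, were split: Cldn16 was lower (-0.46 ± 0.07, 6.77e-06) and its partner Cldn19 higher (0.72 ± 0.07, 4.06e-09), without overlap in either. Klotho (Kl), the co-receptor of FGF23, ran from 5.91 to 6.28 in SBN/y against 5.18 to 5.68 in SBH/y (-0.68 ± 0.12, 0.000117). Podocyte genes were lower at 5 of 18 and higher at 0, by small amounts such as Tcf21 (-0.29 ± 0.07) and the basement membrane chain Col4a4 (-0.42 ± 0.10). That count was 3 without SBH/y replicate 1, 3 or 4 or SBN/y replicate 2. The slit diaphragm gene Nphs1 was at -0.12 ± 0.09 and did not pass (adjusted p = 0.496). Vegfa, which podocytes and tubules make for the capillaries, was at 8.83 to 8.96 in SBN/y and 8.51 to 8.72 in SBH/y (-0.27 ± 0.05). Its second probe set gave -0.24 and did not pass (adjusted p = 0.0688). The Vegfa receptor Kdr was at -0.32 ± 0.06, while the endothelial marker Pecam1 was at 0.00 ± 0.06. Of 13 endothelial genes 3 were lower and 1, Eng, higher, and 1 was lower with the GAPDH measure held constant or without SBH/y replicates 2 and 5.

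In the growth factor axis 3 of 29 genes were higher and 5 lower, with a median of -0.008. Over all genes 10.2% were higher, near the share here, and 7.48% lower. Igf1 was higher by 0.40 ± 0.07 (adjusted p = 0.000206), although its further probe sets (0.14 and 0.18) did not pass. Among the binding proteins of IGF, Igfbp2 was higher (0.54 ± 0.06, 8.74e-08) and Igfbp4 lower (-0.77 ± 0.09, 2.43e-07). Igfbp5 had no settled direction, at 0.36 by its brightest probe set and -0.71 by another.

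Some of the widest gaps belonged to genes on no list. Rnf6, a ubiquitin ligase, lay at 3.49, 3.91 and 4.09 in SBN/y and at 5.91, 6.05 and 6.22 in SBH/y. Vps13c, a lipid transfer protein, lay at 4.00, 4.28 and 4.75 in SBN/y and at 5.71, 6.03 and 6.24 in SBH/y. Each gene parted the strains on all arrays, by 2.19 ± 0.12 (adjusted p = 1.42e-13) and 1.70 ± 0.12 (2.31e-11). Mis18a, a centromere factor, was called higher too, but with an SBN/y mean of 3.02, under the highest Xist value, its fold was not measured, although single SBN/y arrays reached 3.29. Car3, a carbonic anhydrase of muscle and fat, was higher by 1.49 ± 0.16 (5.35e-08), but by only 0.29 by its second probe set (0.0481). On the low side stood Matn1, a matrix protein of cartilage (-2.24 ± 0.12, 1.54e-13), Dph6, which completes diphthamide (-2.12 ± 0.11, 7.16e-14), Ly6i (-2.11 ± 0.07, 1.46e-18), Aldh1b1, a mitochondrial aldehyde dehydrogenase (-2.0 ± 0.11, 9.34e-14), and Poteml2, which overlapped (-1.69 ± 0.39, 0.0031). Mrap, the accessory protein that adrenal and fat cells use for the ACTH receptor, lay at 6.44, 6.74 and 7.01 in SBN/y and at 4.21, 4.49 and 4.83 in SBH/y (-2.23 ± 0.11, 2.36e-14). It was the 1 called gene of 8 adrenal markers. The steroid enzymes Cyp11b1 (2.28 to 2.71 over the 12 arrays, near background) and Cyp21a1 and the cholesterol carrier Star were called in neither direction.

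The same strain contrast was then set beside that of rats with 2 kidneys, where 2817 probe sets were called (9.07%), and of genes 5.5% were higher and 5.54% lower. Of the 4342 called with 1 kidney, 1975 were called in the same direction with 2 (45.5% of the 1-kidney calls and 70.1% of the 2-kidney calls) and 7 in the opposite one. The strain differences of all probe sets correlated at r = 0.782 across probe sets, which are not independent. Another 2360 were called with 1 kidney only, 1378 higher and 982 lower, and 2033 of these had the same sign with 2 kidneys. A call in one contrast and none in the other does not show that they differ. The difference between the strain differences, 1 kidney minus 2, was called at 79 probe sets (0.254%), 65 positive (0.209%) and 14 negative (0.0451%), of which 49 were among the 2360. At an unadjusted p under 0.05 there were 2503. The count of 79 moved with single arrays, from 52 without SBN/y 1-kidney replicate 6 to 131 without replicate 4 of that group, 133 without SBH/y 1-kidney replicate 5 and 157 without replicate 3, and was 124 with a trended and robust variance and 124 with the GAPDH measure held constant.

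**Figure D5:**
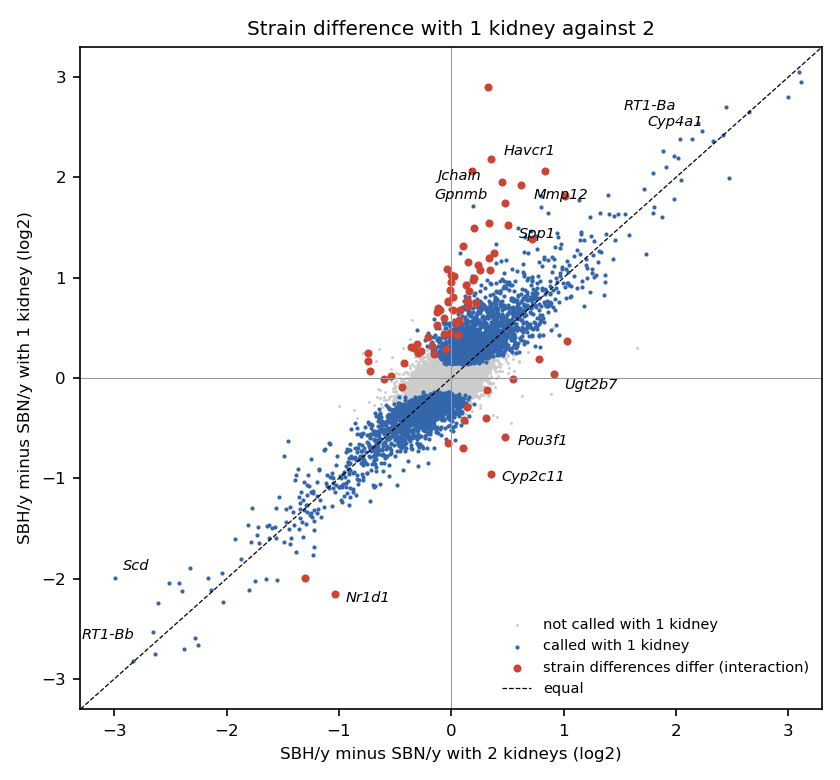
Strain difference with 1 kidney against that with 2 kidneys (log2) for each of 31042 probe sets, in grey where not called with 1 kidney, in blue where called, and in red for the 79 probe sets whose strain differences differ. Most called points lie near the dashed line of equality, and the red points lie mostly above it, with Havcr1 at 2.18 against 0.35.

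Of the positive terms among named genes, that of Havcr1 was the largest. For Havcr1 the strain difference was 0.35 ± 0.25 with 2 kidneys, where it did not pass (adjusted p = 0.491), and was larger with 1 kidney by 1.83 ± 0.34 (adjusted p = 0.011). Its 2-kidney means were 3.86 in SBN/y and 4.21 in SBH/y. Its SDs there were 0.10 and 0.29, against 0.60 and 0.63 with 1 kidney. The fit used 1 variance for all 4 groups, so its errors for Havcr1 follow neither spread. The failed call with 2 kidneys rests on that shared variance. Jchain, Mmp12 and Gpnmb too had their largest SD in SBH/y with 1 kidney (0.59, 0.43 and 0.46). Jchain differed by 0.45 ± 0.21 with 2 kidneys and by 1.497 ± 0.29 more with 1 (0.0141), although its second probe set gave 0.42 ± 0.14 more and did not pass (0.297). Ighl2 differed by 0.21 ± 0.17 with 2 kidneys and by 1.29 ± 0.23 more with 1 (0.00764). Mmp12 (1.31 ± 0.19, 0.0011), Gpnmb (1.27 ± 0.20, 0.00274) and Spp1 (1.01 ± 0.14, 0.000762) also differed between the strains with 2 kidneys, but by 0.62, 0.48 and 0.51 only. Tnfrsf12a had no strain difference that passed with 2 kidneys (-0.04 ± 0.12), and 1.12 ± 0.17 more with 1 (0.0011). Of the tubular injury list 9 of 21 genes had a positive difference of this kind and 0 a negative one, against 0.331% and 0.0774% of all genes. The lists were chosen with earlier results of these data known, so this count is a description and no independent support. Myeloid markers and matrix genes had 3 each, of 21 and 34. Antigen presentation, interferon response, cell cycle, intercalated cell and respiratory chain genes had 0 in either direction. With 1 kidney 15 antigen presentation, 19 interferon response and 13 cell cycle genes were called higher. There 6 intercalated cell and 11 respiratory chain genes were called lower. At the shares over all genes, lists of this length would seldom hold a called term, so the 0 does not set them apart. Their median terms were 0.167, 0.167, 0.102, -0.164 and -0.0425 in that order, against 0.00472 over all genes.

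Of the negative terms among named genes, that of Cyp2c11 was the widest. Cyp2c11 was at 9.39 and 9.75 with 2 kidneys (means of SBN/y and SBH/y), a difference of 0.35 ± 0.16 that did not pass, against -0.96 with 1 (change -1.31 ± 0.23, adjusted p = 0.00519). Nr1d1 changed by -1.12 ± 0.24 (0.0389), from -1.03 with 2 kidneys to -2.15 with 1. Ugt2b7, a glucuronosyl transferase, was higher by 0.91 ± 0.12 with 2 kidneys and by 0.04 ± 0.11 with 1 (change -0.87 ± 0.16, 0.0105). Eri2 (-0.80 ± 0.11) and Acsm3 (-0.62 ± 0.10) were near 0 with 2 kidneys (0.11 and -0.03) and lower with 1. They are neighbours in a run of 5 genes on chromosome 1, all 5 of them lower with 1 kidney. By the second probe set of Eri2 the change was -0.38 ± 0.17 and did not pass (0.544). Serpinb12 had a negative term too (-0.66 ± 0.13, 0.0128), with a strain difference of 0.37 with 1 kidney. With 2 kidneys its SBN/y mean (3.01) lay under 3.13, the highest Xist value, so its fold there was not measured.

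At 5 genes the strain difference was called in opposite directions. Pou3f1, a transcription factor, went from 0.48 ± 0.14 with 2 kidneys to -0.59 ± 0.13 with 1, and the kinase Pim3 from 0.30 ± 0.07 to -0.40 ± 0.07. The reverse was seen for Cd3g (-0.35 ± 0.08 to 0.31 ± 0.08), for Lbp, which binds bacterial lipopolysaccharide (-0.33 ± 0.08 to 0.30 ± 0.08), and for the matrix protease Mmp14 (-0.27 ± 0.08 to 0.27 ± 0.08). Their interaction terms were called, with adjusted p from 0.000612 (Pim3) to 0.028 (Mmp14). The changes ran from 0.54 (Mmp14) to -1.06 (Pou3f1), and the 1-kidney groups overlapped at Cd3g, Lbp and Mmp14. The second probe set of Mmp14, which is dim, did not repeat the reversal. It gave -0.03 with 2 kidneys and 0.02 with 1, and neither passed.

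Several wide gaps were of nearly equal size in both contrasts. Cyp4a1 was at 2.42 with 2 kidneys and 2.43 with 1, Sdf2l1 at 2.23 and 2.46, Dph6 at -2.13 and -2.12, Sgk1 at 0.99 and 0.95, and Lpl at 1.58 and 1.43. None of these 5 had an interaction that passed the test, with adjusted p between 0.795 and 0.997, which does not show that they are equal. Of the 1975 probe sets called alike in both, the difference was larger with 1 kidney at 1075.

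The order of called genes along the chromosomes was then described. Of 14167 genes placed in RefSeq order, the next measured gene was called in 22.8% of cases after a called gene and in 16.6% after one that was not, where 17.7% were called in all. Runs of at least 4 called genes numbered 25. After the run of class II genes, the next 2 had 7 genes each and lay on chromosome 20 too. The first held Pofut2, Col18a1, Slc19a1, Pcbp3, Col6a1, Col6a2 and Ftcd, with collagen chains higher (Col18a1 by 0.33 ± 0.06, Col6a2 by 0.48 ± 0.10) and the folate carrier Slc19a1 (-0.19 ± 0.05), Pcbp3 (-0.37 ± 0.06) and Ftcd lower. Neighbours in a run thus did not all move one way. The second probe sets of Col6a2 (0.00), Pofut2 (-0.05) and Pcbp3 (-0.13) did not repeat the call, nor did the other set of Pcbp3 (-0.08).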

How the data were processed

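Total RNA of rat kidney was measured on Affymetrix arrays, 1 for each of 23 samples. The deposited table holds log2 values. For their making by the authors, GCOS and RMA are named per the submitters' processing notes, without a version. RMA equalises the arrays' distributions, so a change in total mRNA could not be seen, and no scan date was at hand to examine batches.

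The tests used limma 3.58.1 in R 4.3.3, two-sided, with 4 group means fitted together on 23 arrays. Each probe set had 1 variance estimate for all 4 groups, so a standard error does not follow the spread of single groups. Benjamini-Hochberg adjustment ran over 31042 probe sets, with a threshold of 0.05. On simulated data the fit recovered 91 of 100 probe sets changed by 0.5 log2 and 100 of 100 changed by 1, with 12 false calls. Of the probe sets, 20826 had 1 gene symbol, 436 several and 9780 none. A gene is its brightest probe set. RefSeq (GRCr8) served for names, gene order and promoters.

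The comparison and the 36 gene lists were chosen with earlier results of these data known. Named genes were the 15 largest called in each direction, the 8 largest interactions in each, up to 6 with opposite calls, the 4 with the smallest p of each list, and the 3 longest runs; bare locus symbols were left out. All other genes named were picked after their values were seen. Each result was refitted with a trended and robust variance, a GAPDH covariate, the replicate number as a block, only the groups compared, and each array left out in turn. Other fits dropped dim probe sets, repeated the quantile normalization, or took 1 probe set per gene or a gene's next one. Leaving out SBH/y replicates 2 and 5 was added after seeing the data.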

Additional observations from a re-analysis of the deposited data

Results flagged for a closer look

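In 32 of the 362 groups of 6 arrays tested for the named genes (8.84%), 1 array lay farther from its nearest neighbour than Dixon's critical value allows, where chance gives about 1 in 20 groups. SBN/y replicate 4 held 11 of the 16 such values in its strain. The first of these were Nr1d1 at 6.93 (highest, others 6.34 to 6.51), Ly6i at 8.31 (lowest, others 8.49 to 8.57), Poteml2 at 7.68 (lowest, others 9.38 to 9.90), Cd68 at 5.70 (highest, others 5.19 to 5.30) and C1qc at 7.30 (highest, others 6.69 to 6.87). The rest were Fmo5 at 8.03 (highest, others 7.50 to 7.68), Acot4 at 6.77 (highest, others 6.22 to 6.40), Acsm5 at 5.76 (highest, others 5.22 to 5.35), Lpl at 8.39 (highest, others 7.96 to 8.11), Fdft1 at 8.39 (highest, others 7.91 to 8.09) and Ftcd at 6.25 (lowest, others 6.60 to 6.78). Single arrays of the same strain stood apart for Pofut2 at 6.14 (lowest, others 6.39 to 6.49), Mki67 at 3.51 (highest, others 3.24 to 3.34), Cd44 at 5.18 (lowest, others 5.45 to 5.56), Casr at 7.73 (lowest, others 7.85 to 7.91) and Slc19a1 at 8.83 (highest, others 8.67 to 8.72), from replicates 3, 5 and, for the last 3 genes, 6. In SBH/y, replicate 1 stood apart for Ugt2b7 at 6.54 (lowest, others 6.85 to 6.95), Timp1 at 7.53 (highest, others 6.61 to 6.94), Fcgr2b at 4.60 (highest, others 3.79 to 4.01), C1qc at 7.93 (highest, others 7.42 to 7.61), Egr2 at 4.23 (highest, others 3.33 to 3.64) and Mthfd1 at 8.81 (lowest, others 8.97 to 9.06). SBH/y replicate 3 stood apart for Cyp4a1 at 10.99 (highest, others 10.14 to 10.36), Cyp4a8 at 12.00 (highest, others 11.72 to 11.80), Acot3 at 7.15 (highest, others 6.30 to 6.57), Abca1 at 5.76 (lowest, others 6.45 to 6.74), Igfbp5 at 10.17 (lowest, others 10.33 to 10.40) and Pklr at 7.33 (highest, others 6.90 to 7.05), of which Cyp4a1, Cyp4a8 and Acot3 act on fatty acids. Replicate 5 had Mmp12 at 5.39 (lowest, others 6.29 to 6.58) and Scd at 5.43 (highest, others 3.62 to 4.23), replicate 2 had Casr at 7.15 (highest, others 6.58 to 6.75) and replicate 6 had Ces1e at 4.20 (lowest, others 4.68 to 4.90).

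At 24 named genes the strain difference with 1 kidney differed from that with 2 by the interaction term of the limma fit at an adjusted p below 0.05. The log2 size of that term was positive for Havcr1 (1.83), Jchain (1.497), Mmp12 (1.31), Gpnmb (1.27), Spp1 (1.01), Ighl2 (1.29), Tnfrsf12a (1.12), Olr1 (1.001), Cd3g (0.67), Lbp (0.63), Mmp14 (0.54), Timp1 (0.86), Cd44 (0.83), Vim (0.63), Fcgr2b (0.96) and C5ar1 (0.58). Those of Olr1 and Fcgr2b are fitted sizes of genes whose mean was under the highest Xist value in 3 of the 4 groups, and measure no fold. The term was negative for Nr1d1 (-1.12), Cyp2c11 (-1.31), Pou3f1 (-1.06), Ugt2b7 (-0.87), Eri2 (-0.80), Pim3 (-0.70), Serpinb12 (-0.66) and Acsm3 (-0.62). That of Serpinb12 measures no fold either, since its SBN/y mean with 2 kidneys was under the highest Xist value. By their second probe sets the terms of Jchain (0.42), Cd44 (0.75), Mmp14 (0.05) and Eri2 (-0.38) did not pass the test.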

How the results depend on the processing

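With the counts of 4342 (1 kidney), 2817 (2 kidneys) and 79 (difference between the strain differences), the alternatives to the first gave 3787 to 4544, apart from 1 probe set per gene, which tests 14217 genes and called 2810 with 1 kidney and 1748 with 2. The interaction count was 124 with a trended and robust variance and 124 with the GAPDH covariate; the cause was not tested. Leaving out 1 array at a time gave 3713 to 4516, 2412 to 3002 and 52 to 157, the last highest without SBH/y 1-kidney replicate 3, at 133 without replicate 5, 131 without SBN/y replicate 4 and lowest without SBN/y replicate 6. Without SBH/y replicates 2 and 5 the counts were 3905, 3018 and 103. Replicate numbers did not pair the samples: the correlations of same-numbered deviations lay between -0.0734 and 0.15, and 2 of 6 samples matched their own number best. With the replicate number as a block 4302, 2718 and 67 were called. Direction turned for RT1-Ba (-0.73), Slc16a1 (-0.023), Apoe (0.034), Egr2 (-0.025), Fdx1 (0.079) and Pofut2 (-0.052) with the next probe set, of which only RT1-Ba was called, and for Ugt2b7, not called in any of these fits, at -0.003687 with the GAPDH covariate and -0.049 without SBN/y replicate 3. Of 176 called named genes, 173 were called after repeated quantile normalization, 172 with only the groups compared, 175 with the block, 168 with the GAPDH covariate, and 25 of 43 by the next probe set. Without 1 array 8 lost the call (Ace, Ccl5, Lamb2, Mmp11, Plvap, Pofut2, Smarcb1 and Tap2), at adjusted p up to 0.112. Of lists, lower sodium transport genes numbered 4 without SBH/y replicate 3 rather than 2, and higher glutathione genes 5 with the GAPDH covariate rather than 9. Signal limits the low end: 99 called probe sets lay under the highest Xist value in both groups and 133 in 1.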
